A study of Mus musculus with 15 samples.

Results

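The genes described here are the amino acid transporter families Slc1, Slc3, Slc6, Slc7, Slc36, Slc38 and Slc43 in MC38 tumours of mice. They were taken as every row of the deposited expression table whose Ensembl identifier maps to a symbol of these families, which gave 39 genes of 17712. Of the 67 symbols of these families in the annotation, the other 28 were not analysed here. By name, 2 of the 39 encode no transporter of their own: Slc36a3os is an antisense RNA, and Slc7a6os is the opposite-strand neighbour of Slc7a6. Libraries were prepared with a kit that keeps the strand, but whether the counting used it is not given in the sources used here, so the split of reads between Slc7a6 and Slc7a6os is uncertain.

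Cells take up amino acids through carriers with overlapping substrates. Members of the Slc7 family that exchange large neutral amino acids, cystine or cationic amino acids work as light chains bound by a disulfide bridge to the heavy chain Slc3a2 (CD98), which brings them to the cell surface, whereas the cationic carriers Slc7a1 and Slc7a2 work alone. Sodium-coupled carriers of the Slc1 and Slc38 families load glutamine, alanine and serine, and the Slc6 family carries glycine, taurine, creatine and related solutes. Tumour cells and activated myeloid cells both rely on this uptake, for protein synthesis, for glutathione and for nitric oxide or polyamines made from arginine.

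Tumours were grown from MC38, a mouse colon carcinoma line, under the skin of C57BL/6 mice, and injected once they measured about 5 mm. The 4 groups, each given 100 µL into the tumour, were BO-112+DMXAA (50 µg of BO-112 with 100 µg of DMXAA, n = 4), BO-112 alone (50 µg, n = 4), DMXAA alone (100 µg, n = 4) and vehicle, which was PBS with DMSO and glucose (n = 3). BO-112 is a double-stranded RNA, poly I:C complexed with polyethyleneimine, that is sensed by receptors of viral RNA, and DMXAA is an agonist of mouse STING. Tumours were collected at 24 h, so all values come from 1 time point in 1 transplanted line, and RNA of the whole tumour was sequenced in paired reads of 150 bp. The labels call the tumours of a group biological replicates.

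Libraries held 12725316 to 19660511 reads assigned to genes, and levels are given as CPM, the reads of a gene relative to all assigned reads, after the authors' scaling. Of 14 epithelial markers 7 were in the table. Of the defining ones, Epcam stood between 0 and 2.67 CPM over the 15 libraries, with 1 library at 0, and Cdh1 between 4.91 and 82.6 CPM. The summed CPM of those 7 was 15.9 to 33.9 in BO-112+DMXAA tumours, 11.99 to 16.6 in BO-112 tumours, 20.8 to 45.9 in DMXAA tumours and 36.0 to 94.1 in vehicle tumours. Skeletal muscle markers (14 of 15 in the table) summed to 208 CPM in vehicle replicate 2, 635 in BO-112 replicate 1, 1054 in DMXAA replicate 1 and 524 in DMXAA replicate 3, beside 11.5 to 37.7 CPM in the other 11 libraries, and these 4 are called muscle-high here. DMXAA replicates 2 and 3 also stood apart by transcript length: against the mean of the other libraries, short genes (the fifth with up to 1387 bases of exon) were higher by a median log2 difference of 0.79 and 0.41, and long genes (the fifth with at least 5052 bases) were at -0.54 and -0.31. In the other 13 libraries these medians lay between -0.23 and 0.09 for short genes and between -0.03 and 0.17 for long genes. Transporter genes are long, with a median of 3936 bases against 2857.5 over all genes with a length, and their median difference was -0.60 in DMXAA replicate 2 and -0.31 in DMXAA replicate 3, against -0.16 to 0.26 elsewhere.

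Levels between genes were compared as CPM per kb of exon. The heavy chain Slc3a2 had the highest mean over all libraries at 151 CPM per kb, followed by the large neutral amino acid exchanger Slc7a5 (LAT1) at 111, the system A carrier Slc38a2 at 90.0 and the glutamine exchanger Slc1a5 (ASCT2) at 69.2 CPM per kb. The arginine carrier Slc7a1 (CAT1) stood at 41.0 and the taurine carrier Slc6a6 at 37.7 CPM per kb. Of the 39 genes, 26 had a mean of at least 1 CPM and 13 less, and 8 of those 13 had at least 1 library with no read. The group means of the leading 4 genes lay close together, except that Slc3a2 had a mean level of 158 CPM per kb in BO-112+DMXAA tumours, 193 in BO-112 tumours, 130 in DMXAA tumours and 114 in vehicle tumours.

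**Figure D1:**
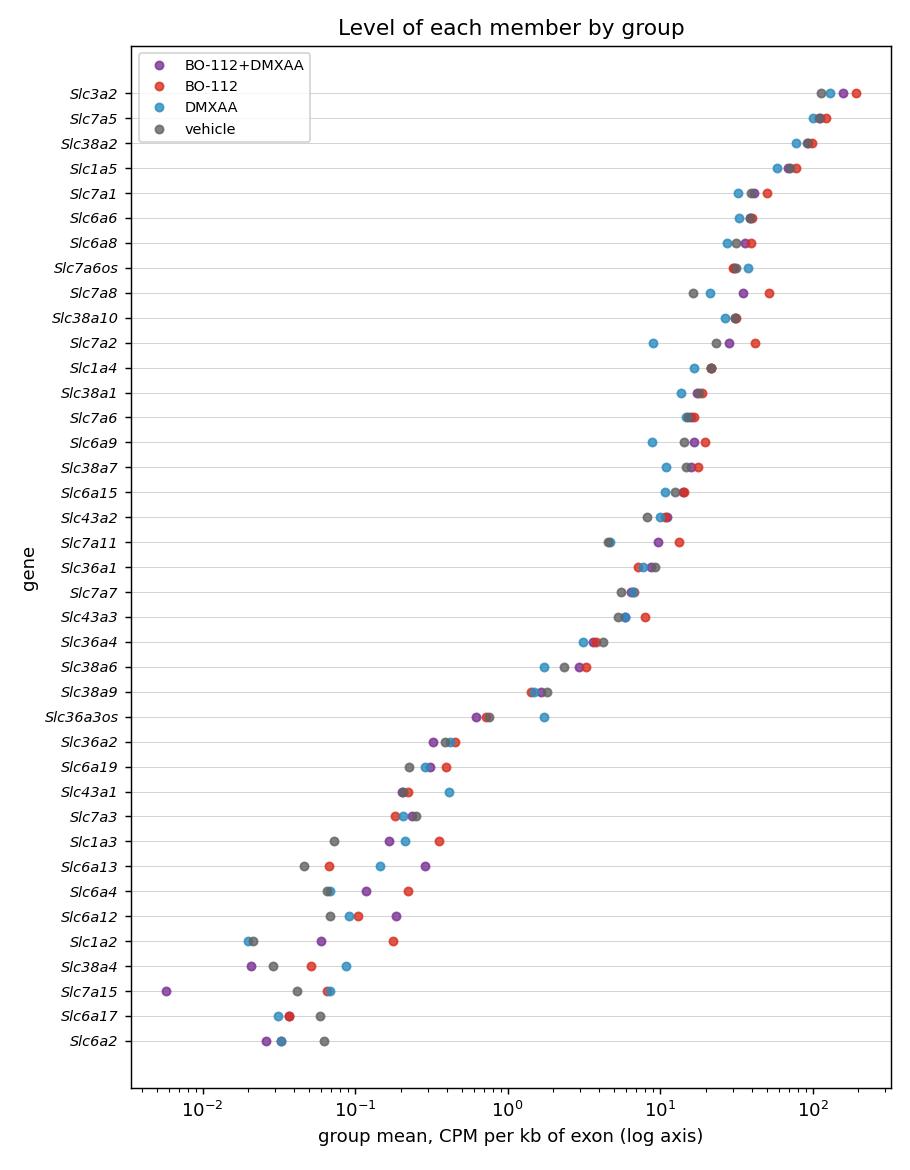
Mean level of each of the 39 genes in BO-112+DMXAA, BO-112, DMXAA and vehicle tumours, in CPM per kb of exon on a log axis, with genes ordered by level. Points of the 4 groups lie close together for most of the abundant genes, and Slc7a8, Slc7a11 and Slc7a2 have the widest spread between groups among genes above 1 CPM per kb.

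Differences between groups were tested with limma over all 17712 genes, with Benjamini-Hochberg adjustment and a threshold of 0.05 on the adjusted p. Ranges of 2 groups without overlap, given below for single genes, were common. Over all genes this held for 35% for BO-112 against vehicle and 22.7% for BO-112 against DMXAA. For BO-112+DMXAA it held for 16.5% against vehicle, 10.2% against BO-112 and 7.97% against DMXAA, and for DMXAA against vehicle for 11.5%. Against vehicle, BO-112 raised 4 of the 39 genes, Slc7a11, Slc7a8, Slc3a2 and Slc1a2, while 11.9% of all genes passed in either direction and 7.64% were higher. The share of transporters called, 10.3%, was near that of genes in general. Their median log2 fold change was 0.28, beside -0.04 over all genes, and 30 of the 39 were above 0. The fit of BO-112 and vehicle tumours alone called 10, of which 9 were higher, beside 24.4% of all genes, and the fit without DMXAA replicates 2 and 3 called 7, of which 6 were higher, beside 25.1%.

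BO-112+DMXAA raised 2 of the 39 against vehicle, Slc7a11 and Slc7a8, beside 2.67% of all genes called and 2.49% higher. The median log2 fold change of the 39 was 0.06, against -0.01 over all genes. Without the 4 muscle-high libraries neither call held, with adjusted p = 0.0537 for Slc7a11 and 0.0851 for Slc7a8, while 1.99% of all genes passed.

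DMXAA against vehicle gave 0 calls among the 39 by limma on the deposited values and 0 by limma-voom on recovered reads, with 8 at an unadjusted p under 0.05, beside 1.25% of all genes called. The median log2 fold change was -0.22, beside 0.01 over all genes, and 14 of the 39 were above 0. With DMXAA replicates 2 and 3 left out, 2 genes were called higher, Slc7a7 and Slc7a8, beside 2.11% of all genes. That fit keeps only DMXAA replicates 1 and 4, and replicate 1 is muscle-high.

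BO-112+DMXAA against BO-112 gave 0 calls among the 39 by both tools, with 2 at an unadjusted p under 0.05, Slc1a2 and Slc7a8, and 0% of all genes passed. The median log2 fold change was -0.14, beside 0.01 over all genes, and 9 of the 39 were above 0. Slc7a8 was called lower in a fit of these groups alone, beside 2.04% of all genes, and without DMXAA replicates 2 and 3, beside 1.16%.

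BO-112+DMXAA against DMXAA raised 2 genes, Slc7a11 and Slc7a2, where 0.886% of all genes passed and 0.717% were higher. The median log2 fold change was 0.24, beside -0.00 over all genes. Both calls were lost without DMXAA replicate 2 or DMXAA replicate 3, and also without BO-112+DMXAA replicate 1, 2 or 4, BO-112 replicate 3, the 4 muscle-high libraries, or the groups outside the comparison. Of all genes, 0.00565% passed without the muscle-high libraries, 0.0395% without both DMXAA replicates 2 and 3, and 0.0226% in the fit of both groups alone. Leaving out BO-112 replicate 1 ended the Slc7a11 call, and leaving out BO-112 replicate 4 ended the Slc7a2 call.

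The widest contrast was BO-112 against DMXAA, in which 14 of the 39 genes were higher, beside 21.4% of all genes called in either direction and 11.2% higher. The median log2 fold change was 0.38, beside -0.05 over all genes. Leaving out DMXAA replicates 2 and 3 lowered the count to 9, with 10.9% of all genes called, and leaving out the 4 muscle-high libraries lowered it to 5, with 4.47% called. The fit of the BO-112 and DMXAA groups alone called 7, with 7.13% of all genes called. Leaving out either set of libraries was chosen after seeing the data. The fit without the muscle-high libraries keeps DMXAA replicates 2 and 4 and vehicle replicates 1 and 3. Replicate 2, with its length difference, thus weighs more in the DMXAA group. A call lost in that fit can come from the fewer tumours, and a part of muscle in it was not tested. Of the 39 genes, 14 were among the long genes and 2 among the short ones, and the part of the length difference of DMXAA replicates 2 and 3 in this count was not tested.

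**Figure D2:**
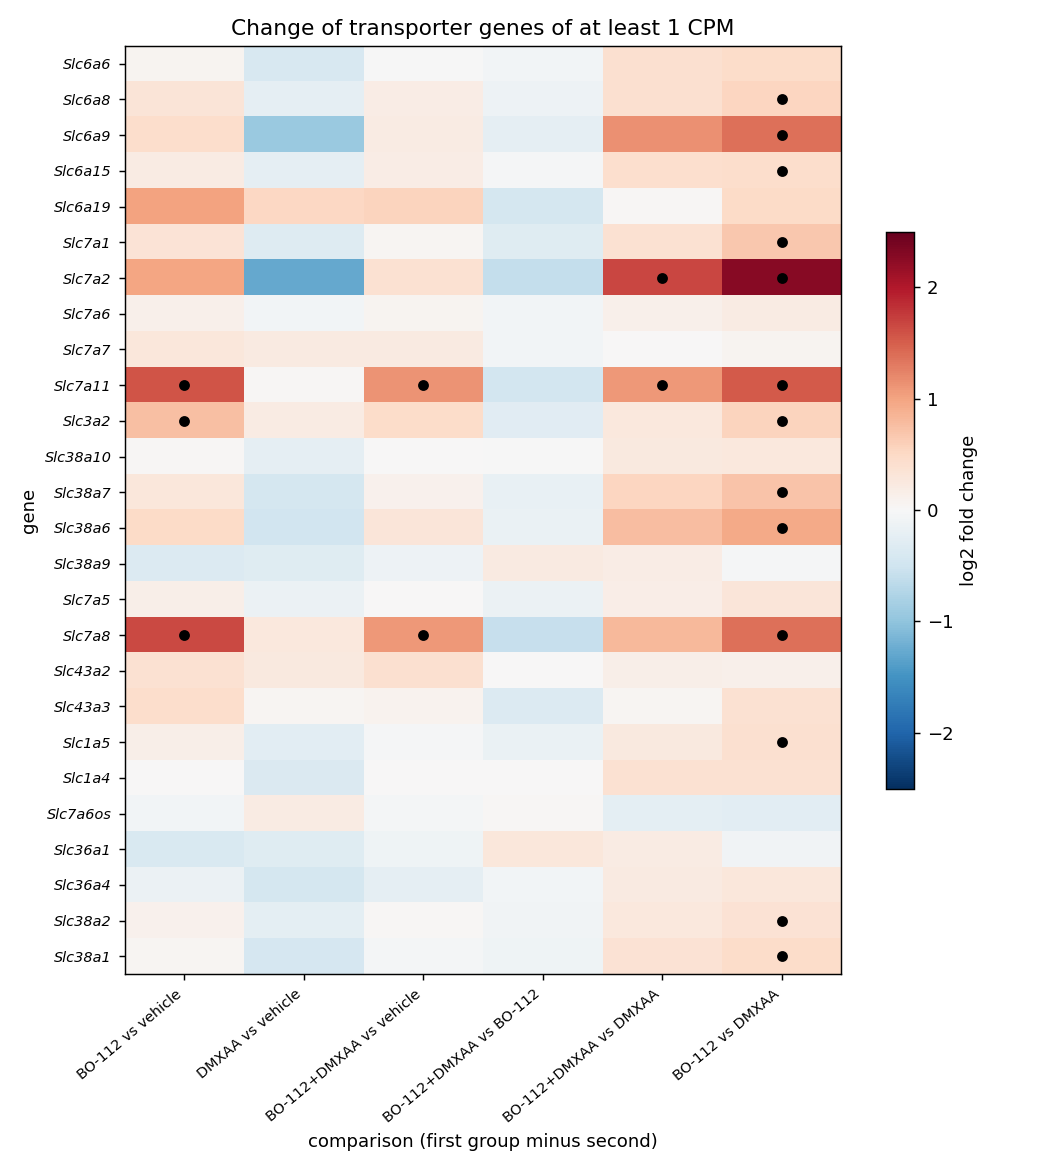
Log2 fold change of the 26 genes with a mean of at least 1 CPM in the 6 comparisons, each as first group minus second, with dots for an adjusted p under 0.05. Slc7a11 and Slc7a8 carry dots for both BO-112-containing groups against vehicle, no gene does for DMXAA against vehicle or for BO-112+DMXAA against BO-112, and all dots lie on positive changes.

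The interaction term, which asks whether DMXAA changed a gene by another amount with BO-112 than without it, gave 0 calls among the 39 by limma on the deposited values and 0 by limma-voom, with 4 at an unadjusted p under 0.05, beside 1.35% of all genes called. Those 4 were Slc3a2 at -0.48, Slc7a8 at -0.84, Slc38a9 at 0.53 and Slc36a1 at 0.59 on the log2 scale. Slc7a8 was called with a negative interaction without DMXAA replicate 2, and without replicates 2 and 3, where 4.01% of all genes passed.

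Slc7a11 (xCT, ENSMUSG00000027737.11) is the light chain of the exchanger that imports cystine for glutathione and releases glutamate. Its level was 98.2, 111, 73.1 and 102 CPM in BO-112+DMXAA tumours and 143, 123, 132 and 123 CPM in BO-112 tumours. It was 49.7, 38.6, 31.0 and 66.3 CPM in DMXAA tumours and 32.6, 44.6 and 56.5 CPM in vehicle tumours. Every BO-112 tumour stood above every tumour of the other groups, every BO-112+DMXAA tumour stood above every DMXAA and vehicle tumour, and the DMXAA and vehicle ranges overlapped. The log2 fold change against vehicle was 1.58 ± 0.23 (SE, adjusted p = 0.00034 by limma), or 2.99-fold, for BO-112. It was 1.13 ± 0.23 (adjusted p = 0.013), or 2.19-fold, for BO-112+DMXAA, and 0.04 with a 95% interval of -0.45 to 0.53 for DMXAA. BO-112 exceeded DMXAA by 1.54 ± 0.21 (adjusted p = 0.00035) and BO-112+DMXAA exceeded DMXAA by 1.09 ± 0.21 (adjusted p = 0.031) on the log2 scale. The BO-112 calls against vehicle and against DMXAA held when each of the 15 libraries was left out in turn, whereas the call for BO-112+DMXAA against vehicle was lost without vehicle replicate 1 or BO-112+DMXAA replicate 2. These are whole-tumour levels, in which fewer cells of a type and less RNA per cell cannot be told apart.

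Marker genes of other cell types were summed in the same libraries. Of 14 neutrophil markers 13 were in the table, and their summed level was 248 to 513 CPM in BO-112+DMXAA tumours, 538 to 639 CPM in BO-112 tumours, 130 to 307 CPM in DMXAA tumours and 151 to 194 CPM in vehicle tumours. The sum was higher in every BO-112 tumour than in every other tumour, but much of it was 1 gene, the macrophage-inducible lectin Clec4e, with means of 105 CPM in BO-112+DMXAA tumours, 306 in BO-112 tumours, 18.5 in DMXAA tumours and 4.34 in vehicle tumours. Other members had another order: S100a9, a protein of neutrophil granules and cytosol, averaged 37.1 CPM in BO-112+DMXAA tumours, 12.5 in BO-112 tumours, 22.04 in DMXAA tumours and 0.528 in vehicle tumours, and S100a8, Cxcr2 and Mmp8 likewise had their highest mean in BO-112+DMXAA tumours. The median log2 fold change of the 13 markers was 0.62 for BO-112+DMXAA against BO-112 and -0.17 for BO-112 against DMXAA, where Slc7a11 stood at -0.45 and 1.54. For BO-112 against vehicle 5 of the 13 were called, all higher, beside 11.9% of all genes, and 3 without vehicle replicate 3. The neutrophil-restricted gene Ly6g stood between 0 and 0.689 CPM and at 0 in 5 libraries. Macrophage markers (14 of 14 in the table) summed to 3693 to 4597 CPM in BO-112+DMXAA tumours, 3767 to 5035 in BO-112 tumours, 3785 to 7294 in DMXAA tumours and 4042 to 4696 in vehicle tumours, with all 4 ranges overlapping. Single macrophage markers differed, and 4 of the 14 were called for BO-112 against vehicle, beside 11.9% of all genes: Fcgr1 was higher, and Mrc1, Cd163 and Csf1r were lower. The Csf1r call was lost without any 1 vehicle tumour, BO-112 replicate 1, 2 or 4, or DMXAA replicate 3. The mannose receptor Mrc1 averaged 73.6 CPM in BO-112+DMXAA tumours, 34.45 in BO-112 tumours, 112.7 in DMXAA tumours and 252.9 in vehicle tumours. Fibroblast markers (13 of 13) summed to 5689 to 7834 CPM in BO-112+DMXAA tumours, 6239 to 9821 in BO-112 tumours, 3288 to 6860 in DMXAA tumours and 4858 to 7777 in vehicle tumours. Endothelial markers (13 of 13) summed to 275 to 502 CPM in BO-112+DMXAA tumours, 445 to 515 in BO-112 tumours, 237 to 526 in DMXAA tumours and 324 to 358 in vehicle tumours. The endothelial sum, like the neutrophil sum, was higher in every BO-112 tumour than in every vehicle tumour. The epithelial sum was lower in every BO-112 tumour than in every vehicle tumour. Single members differed here too. Kdr averaged 85.6 CPM in BO-112 tumours against 20.9 in vehicle tumours. Vwf, Tek and Tie1 had lower means in BO-112 tumours, and the other endothelial means were higher, Pecam1 by little (65.2 against 64.3 CPM). Most of the epithelial sum was Cdh1, with means of 8.39 CPM in BO-112 tumours and 45.2 in vehicle tumours. Krt19 and Krt20 had higher means in BO-112 tumours, and the other epithelial means were lower. The part of cell composition in the transporter levels was not tested.

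Among the glutamate carriers of the Slc1 family, Slc1a2 (GLT-1, ENSMUSG00000005089.16) was also called higher. It lay under the mean of 1 CPM set for naming genes, and is described because it was called, after its values were seen. It had 8, 22, 4 and 9 reads in BO-112+DMXAA tumours, 23, 56, 24 and 36 reads in BO-112 tumours, 6, 4, 1 and 6 reads in DMXAA tumours and 5, 5 and 2 reads in vehicle tumours. As CPM these were 1.26, 3.37, 1.60 and 2.30 in BO-112 tumours, above every DMXAA and vehicle tumour, while BO-112+DMXAA replicate 2 at 1.35 CPM lay above the lowest of them. The log2 fold change of BO-112 was 2.91 ± 0.56 against vehicle (adjusted p = 0.0030) and 3.04 ± 0.52 against DMXAA (adjusted p = 0.0015), and both calls held in all 15 fits with 1 library left out. At 0.176 CPM per kb in BO-112 tumours against 0.0214 in vehicle tumours, its mean level was far below that of Slc7a11, at 13.2 and 4.53 CPM per kb in the same groups.

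Slc7a8 (LAT2, ENSMUSG00000022180.8) exchanges large and small neutral amino acids. Its level was 145, 163, 113 and 151 CPM in BO-112+DMXAA tumours and 239, 190, 204 and 212 CPM in BO-112 tumours. It was 122, 45.9, 65.7 and 115 CPM in DMXAA tumours and 69.2, 74.5 and 57.6 CPM in vehicle tumours. BO-112 tumours were highest without overlap, BO-112+DMXAA tumours lay between them and vehicle, and DMXAA tumours split into 2 high and 2 low libraries, the low ones being replicates 2 and 3. The log2 fold change against vehicle was 1.66 ± 0.26 (adjusted p = 0.00069), or 3.16-fold, for BO-112 and 1.09 ± 0.26 (adjusted p = 0.038), or 2.13-fold, for BO-112+DMXAA. BO-112 exceeded DMXAA by 1.39 ± 0.24 (adjusted p = 0.0018), and by 0.83 (adjusted p = 0.0017) without DMXAA replicates 2 and 3. Both BO-112 calls held in all 15 fits with 1 library left out. The call for BO-112+DMXAA held in 5 of them and was lost without any 1 vehicle tumour, any 1 BO-112 tumour or BO-112+DMXAA replicate 1, 2 or 4.

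**Figure D3:**
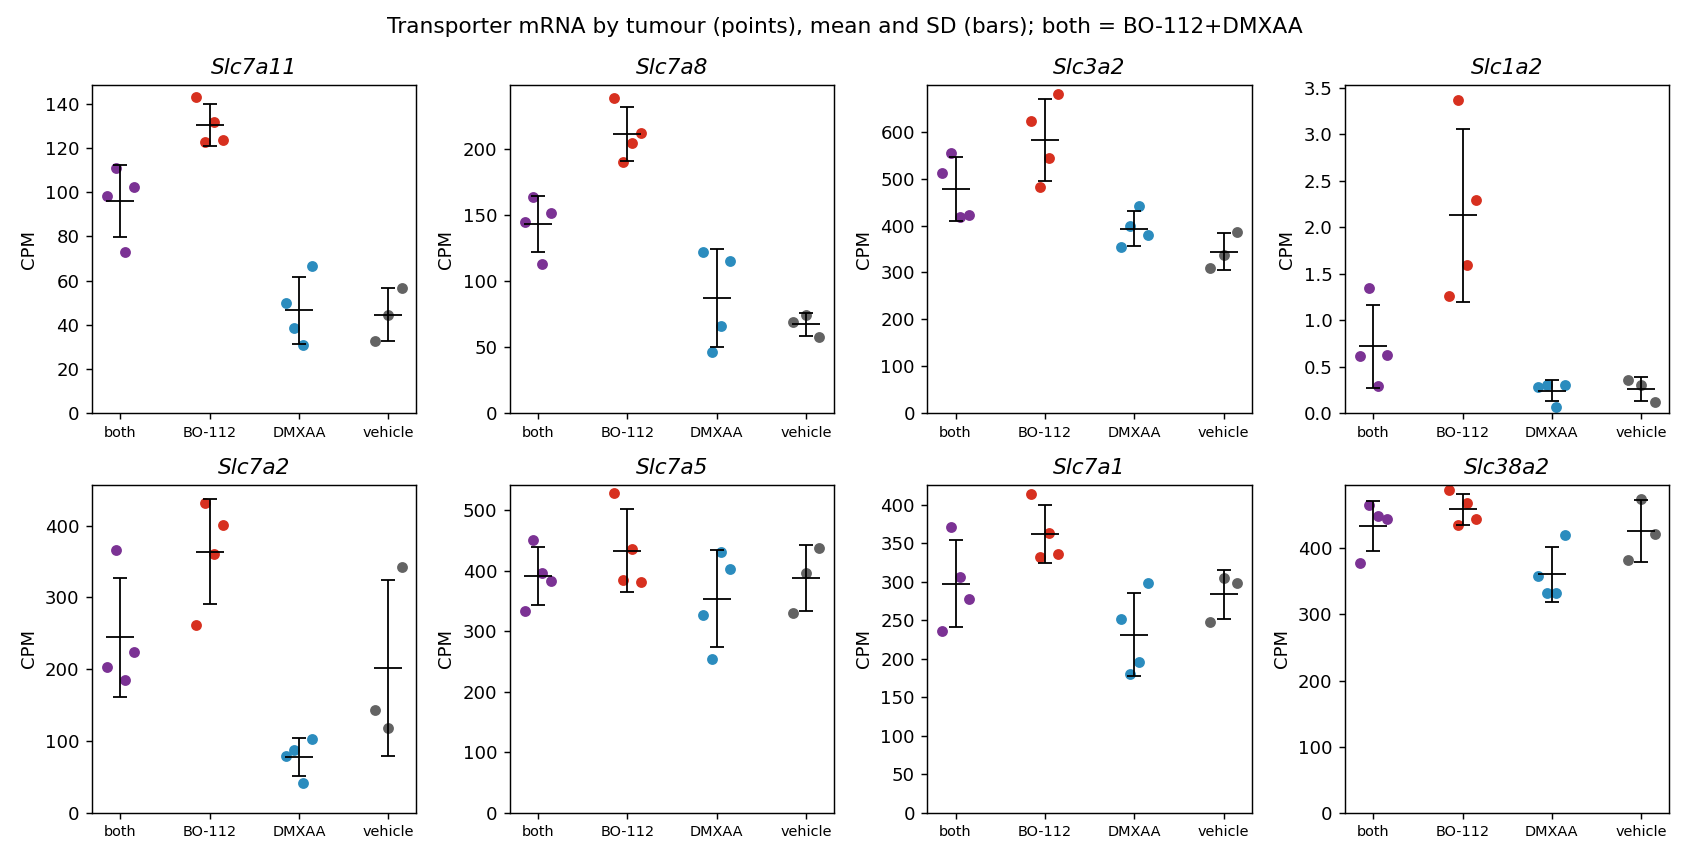
Level of 8 transporter genes in CPM, 1 point per tumour with group mean and SD, for BO-112+DMXAA (both), BO-112, DMXAA and vehicle tumours. For Slc7a11 and Slc7a8 the BO-112 tumours lie above all others, at 123 to 143 and 190 to 239 CPM, while the 4 groups overlap for Slc7a5.

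The heavy chain Slc3a2 (ENSMUSG00000010095.14) was present at 513, 555, 418 and 422 CPM in BO-112+DMXAA tumours and at 623, 482, 544 and 681 CPM in BO-112 tumours. It was present at 354, 399, 442 and 380 CPM in DMXAA tumours and at 309, 336 and 387 CPM in vehicle tumours. All BO-112 tumours stood above all DMXAA and vehicle tumours, and all BO-112+DMXAA tumours above all vehicle tumours. The log2 fold change of BO-112 was 0.75 ± 0.15 against vehicle (adjusted p = 0.0030), or 1.69-fold, and 0.56 ± 0.13 against DMXAA (adjusted p = 0.012). That of BO-112+DMXAA against vehicle, 0.47 ± 0.15, did not pass (adjusted p = 0.13). Without the 4 muscle-high libraries, BO-112 gave 0.70 against vehicle (adjusted p = 0.0597) and 0.53 against DMXAA (adjusted p = 0.11), so both calls were lost there.

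The windows of 250 bases before the transcription start of Slc7a11, Slc7a8 and Slc3a2 are shown because these 3 genes were raised by BO-112 and encode partners of the same heteromeric carriers. All 3 lie on the minus strand of GRCm38.p6 and are printed 5′ to 3′ in the direction of transcription, from the RefSeq promoter table, which held 28 of the 39 genes: Slc7a11 at chr3:50443614-50443863, Slc7a8 at chr14:54781887-54782136 and Slc3a2 at chr19:8713898-8714147. Capitals mark matches to the C/EBP-ATF response element.
Slc7a11: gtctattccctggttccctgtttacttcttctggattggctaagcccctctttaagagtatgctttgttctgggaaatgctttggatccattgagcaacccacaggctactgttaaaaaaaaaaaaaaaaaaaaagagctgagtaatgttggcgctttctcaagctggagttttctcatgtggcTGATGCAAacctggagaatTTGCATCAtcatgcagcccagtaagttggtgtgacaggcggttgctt
Slc7a8: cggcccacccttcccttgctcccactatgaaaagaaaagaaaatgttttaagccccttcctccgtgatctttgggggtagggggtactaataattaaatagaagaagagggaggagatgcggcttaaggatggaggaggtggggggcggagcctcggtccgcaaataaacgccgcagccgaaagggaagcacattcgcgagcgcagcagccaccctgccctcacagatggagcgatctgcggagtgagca
Slc3a2: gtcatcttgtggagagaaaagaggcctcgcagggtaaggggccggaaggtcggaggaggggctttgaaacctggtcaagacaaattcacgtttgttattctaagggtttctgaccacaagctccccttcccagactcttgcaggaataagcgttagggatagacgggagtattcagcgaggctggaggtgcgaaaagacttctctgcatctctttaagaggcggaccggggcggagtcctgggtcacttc
The C/EBP-ATF response element, which ATF4 and its partners bind to induce genes of amino acid supply, was searched as TGATGNAA and, for the other strand, TTNCATCA. It occurred in 3.45% of 32851 promoters, or in at least 1 promoter of 3.91% of 27025 genes, and among the 28 genes in Slc7a11 and Slc7a7. The Slc7a11 window held it at positions -66 and -47 before the start, once on each strand. The antioxidant response element bound by NRF2, searched as TGACNNNGC and GCNNNGTCA, occurred in 10.2% of promoters, or 11.5% of genes, and in 6 of the 28 genes, Slc38a2, Slc43a1, Slc6a13, Slc6a9, Slc7a1 and Slc7a6. Matches to the 2 motifs fell in different genes, so none overlapped, and a match is a description of letters only.

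Slc7a5, the most abundant light chain, differed less between groups. Its level averaged 391 ± 48.4 CPM in BO-112+DMXAA tumours, 433 ± 68.4 CPM in BO-112 tumours, 354 ± 80.2 CPM in DMXAA tumours (SD, n = 4 each) and 388 ± 54.4 CPM in vehicle tumours (SD, n = 3), and the 4 ranges overlapped. The log2 fold change of BO-112 against vehicle was 0.15 with a 95% interval of -0.23 to 0.54 (adjusted p = 0.66), and no comparison passed the threshold with all 15 libraries in the fit. Of the other carriers of large neutral amino acids, Slc43a2 averaged 80.2 CPM in BO-112+DMXAA tumours, 77.6 in BO-112 tumours, 71.7 in DMXAA tumours and 59.3 in vehicle tumours, and passed no test with all groups in the fit. Slc43a3, of the same family, is known as a carrier of nucleobases rather than amino acids.

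The make-up of the light chains of Slc3a2 was described per kb. Of the summed CPM per kb of Slc7a5, Slc7a6, Slc7a7, Slc7a8 and Slc7a11, Slc7a8 made up 19.6% ± 2.30 in BO-112+DMXAA tumours, 24.5% ± 1.22 in BO-112 tumours, 14.1% ± 4.57 in DMXAA tumours (SD, n = 4 each) and 10.9% ± 2.12 in vehicle tumours (SD, n = 3). Slc7a11 made up 5.47% in BO-112+DMXAA tumours, 6.27% in BO-112 tumours, 3.23% in DMXAA tumours and 2.94% in vehicle tumours. Slc7a5 made up 62.3% in BO-112+DMXAA tumours, 58.0% in BO-112 tumours, 68.1% in DMXAA tumours and 72.4% in vehicle tumours. The ratio of Slc3a2 to the summed light chains, both per kb, was 0.886 ± 0.113 in BO-112+DMXAA tumours, 0.916 ± 0.151 in BO-112 tumours, 0.918 ± 0.254 in DMXAA tumours and 0.749 ± 0.0389 in vehicle tumours. These shares are a description of mRNA and were not tested, since they are built from genes already compared.

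**Figure D4:**
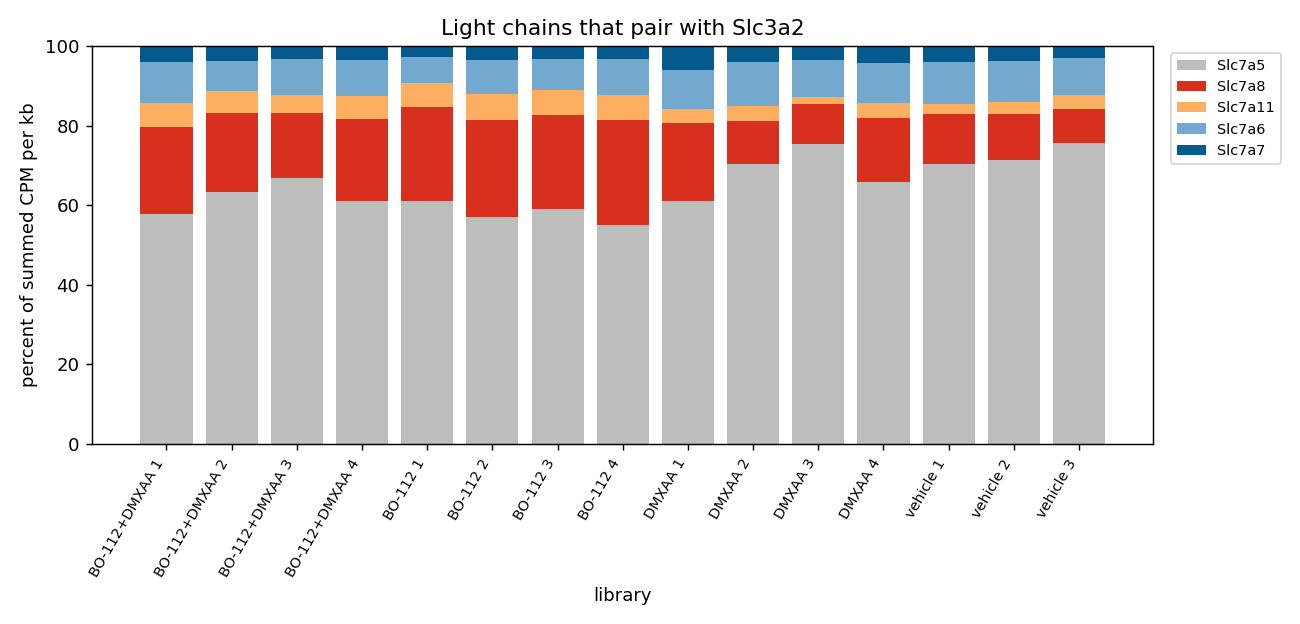
Share of each light chain in the summed CPM per kb of the 5 light chains of Slc3a2, 1 bar per tumour. Slc7a8 takes 23.7% to 26.3% in the 4 BO-112 tumours against 8.56% to 12.7% in the 3 vehicle tumours, with a smaller share of Slc7a5.

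Among carriers of cationic amino acids, Slc7a2 (CAT2, ENSMUSG00000031596.16), which supplies arginine to myeloid cells, varied most. Its level was 203, 366, 185 and 224 CPM in BO-112+DMXAA tumours and 262, 431, 361 and 401 CPM in BO-112 tumours. It was 78.8, 88.2, 41.6 and 103 CPM in DMXAA tumours and 143, 119 and 342 CPM in vehicle tumours. DMXAA tumours were lowest without overlap, and vehicle replicate 3 stood above 3 of the 4 BO-112+DMXAA tumours. BO-112 exceeded DMXAA by 2.27 ± 0.33 on the log2 scale (adjusted p = 0.00056), or 4.84-fold, and by 1.99 (adjusted p = 0.014) without DMXAA replicates 2 and 3. BO-112+DMXAA exceeded DMXAA by 1.67 ± 0.33 (adjusted p = 0.034), a call that held in 8 of the 15 fits with 1 library left out. Against vehicle neither BO-112 (0.99 ± 0.36, adjusted p = 0.090) nor DMXAA (-1.28 ± 0.36, adjusted p = 0.11) passed.

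Slc7a1, the widely expressed arginine carrier, had 236, 371, 306 and 278 CPM in BO-112+DMXAA tumours, 414, 332, 363 and 337 CPM in BO-112 tumours, 251, 181, 196 and 298 CPM in DMXAA tumours and 247, 305 and 299 CPM in vehicle tumours. BO-112 tumours stood above DMXAA and vehicle tumours without overlap, where 22.7% and 35% of all genes had no overlap in either direction. It passed for BO-112 against DMXAA (log2 0.67 ± 0.17, adjusted p = 0.014), a call that was lost without DMXAA replicates 2 and 3 (0.40, adjusted p = 0.115), without the 4 muscle-high libraries (adjusted p = 0.132) and in the fit of both groups alone (adjusted p = 0.0511). The y+L light chains Slc7a6 and Slc7a7, which exchange cationic for neutral amino acids, passed no test with all 15 libraries in the fit, with log2 fold changes of 0.14 and 0.29 for BO-112 against vehicle.

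The exchangers and sodium-coupled carriers of small neutral amino acids had no call against vehicle. Slc1a5, the glutamine exchanger, averaged 192 ± 25.7 CPM in BO-112+DMXAA tumours, 216 ± 25.1 in BO-112 tumours, 162 ± 9.36 in DMXAA tumours and 196 ± 36.0 in vehicle tumours. Slc38a2, a system A carrier that adapts to amino acid supply, averaged 434 ± 38.2 CPM in BO-112+DMXAA tumours, 459 ± 23.6 in BO-112 tumours, 361 ± 41.5 in DMXAA tumours and 426 ± 46.6 in vehicle tumours. In both genes the DMXAA mean was lowest and the vehicle mean lay near that of BO-112+DMXAA tumours. BO-112 exceeded DMXAA by 0.41 ± 0.13 for Slc1a5 (adjusted p = 0.036), by 0.35 ± 0.11 for Slc38a2 (adjusted p = 0.034) and by 0.47 ± 0.15 for the glutamine carrier Slc38a1 (adjusted p = 0.045) on the log2 scale. These 3 calls were the least stable of the 14, holding in 10, 9 and 4 of the 15 fits with 1 library left out, and all 3 were lost without DMXAA replicate 2 or replicate 3 and without the 4 muscle-high libraries. The replicate number as a block ended the Slc38a1 call (adjusted p = 0.0653). Slc1a4 (ASCT1), a carrier of alanine, serine and cysteine, passed no test with all 15 libraries.

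Of the less studied Slc38 genes, Slc38a7, a lysosomal exporter of glutamine, and Slc38a6 were higher in BO-112 than in DMXAA tumours. Slc38a7 was at 61.1, 57.0, 62.4 and 56.2 CPM in BO-112 tumours, against 39.7, 28.4, 35.0 and 43.3 CPM in DMXAA tumours. Slc38a6 was at 20.5, 26.5, 21.5 and 19.97 CPM in BO-112 tumours, against 17.2, 9.58, 8.80 and 11.6 CPM in DMXAA tumours. Neither gene's BO-112 range met its DMXAA range. The log2 fold changes were 0.71 ± 0.15 for Slc38a7 (adjusted p = 0.0054) and 0.95 ± 0.20 for Slc38a6 (adjusted p = 0.0061). Slc38a7 was lost without the 4 muscle-high libraries (adjusted p = 0.076) and Slc38a6 without DMXAA replicates 2 and 3 (adjusted p = 0.0526). Slc38a9, the lysosomal arginine sensor upstream of mTORC1, passed no test with all 15 libraries.

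In the Slc6 family, Slc6a9 (GlyT1), which carries glycine, was at 88.0, 65.7, 70.0 and 64.9 CPM in BO-112 tumours, against 41.0, 8.91, 35.5 and 44.98 CPM in DMXAA tumours. DMXAA replicate 2 stood far below the other 3 tumours of its group, and the groups did not overlap. The log2 fold change was 1.37 ± 0.37 (adjusted p = 0.021) with all libraries, 0.83 without DMXAA replicate 2, 0.74 (adjusted p = 0.013) without DMXAA replicates 2 and 3, and not significant without BO-112 replicate 1 (adjusted p = 0.0587), without the 4 muscle-high libraries (1.74, adjusted p = 0.068) or in the fit of both groups alone (adjusted p = 0.0966). The creatine carrier Slc6a8 was higher in BO-112 than in DMXAA tumours by 0.53 ± 0.13 (adjusted p = 0.012), and Slc6a15, a carrier of branched-chain amino acids and proline, by 0.43 ± 0.10 (adjusted p = 0.012), and each was lost without the 4 muscle-high libraries (adjusted p = 0.0725 and 0.16) and in the fit of both groups alone (adjusted p = 0.0646 and 0.072). The taurine carrier Slc6a6 averaged 242 ± 65.3 CPM in BO-112+DMXAA tumours, 248 ± 23.5 in BO-112 tumours, 204 ± 105 in DMXAA tumours and 239 ± 38.6 in vehicle tumours, and passed no test with all 15 libraries. Slc6a2 and Slc6a4, which carry monoamines, had means under 1 CPM.

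The proton-coupled carriers of the Slc36 family had no call with all groups in the fit. Slc36a1, a lysosomal exporter of small neutral amino acids, averaged 47.4 ± 9.02 CPM in BO-112+DMXAA tumours, 38.5 ± 2.13 in BO-112 tumours, 42.0 ± 12.2 in DMXAA tumours and 50.4 ± 4.20 in vehicle tumours. Its log2 fold change for BO-112 against vehicle was -0.39 and did not pass with all groups in the fit, but it was called lower in the fit of BO-112 and vehicle tumours alone and without DMXAA replicates 2 and 3. For the 3 measured Slc36 carriers the median log2 fold change of BO-112 against vehicle was -0.39, and none was above 0.

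**Figure D5:**
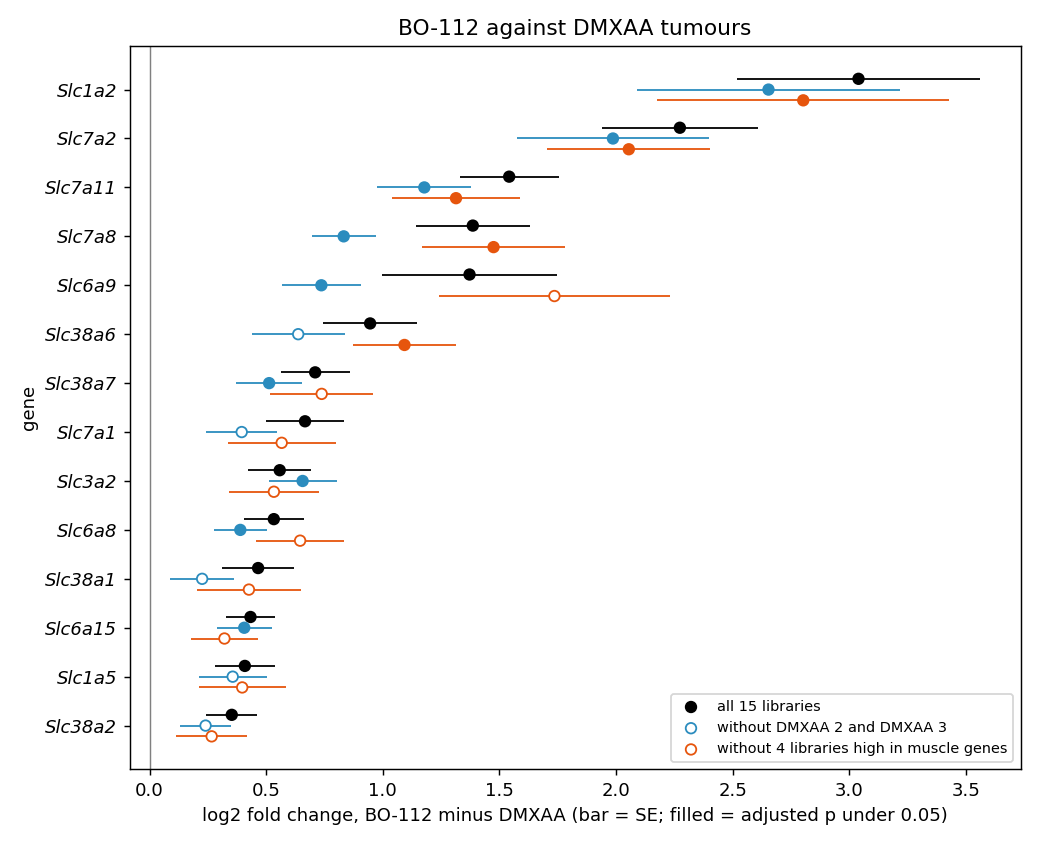
Log2 fold change of BO-112 minus DMXAA tumours with SE for the 14 genes called with all 15 libraries, beside the fits without DMXAA replicates 2 and 3 and without the 4 muscle-high libraries. Filled points mark an adjusted p under 0.05. All points lie above 0, and Slc1a2, Slc7a2, Slc7a11 and Slc7a8 are filled in all 3 fits.

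Lists of genes around amino acid supply were counted in the same fits. For BO-112 against vehicle, where 11.9% of all genes passed, 6 of 18 genes of glutathione synthesis and antioxidant defence were called, all higher, with a list median of 0.45 on the log2 scale. They included Nfe2l2, which encodes the antioxidant regulator NRF2, at 212 ± 14.5 CPM in BO-112 tumours against 122 ± 11.98 CPM in vehicle tumours (log2 0.81 ± 0.11, adjusted p = 0.00023). Hmox1, heme oxygenase, averaged 468 ± 139 CPM in BO-112 tumours against 108 ± 19.7 CPM in vehicle tumours (log2 2.08 ± 0.40, adjusted p = 0.0028), and Srxn1, sulfiredoxin, rose by 0.68 ± 0.16 (adjusted p = 0.014). Gclm, a subunit of the enzyme that joins glutamate to cysteine, did not pass (0.47, adjusted p = 0.129). With 1 library left out the list had 3 to 9 calls, with 3 without vehicle replicate 1 or 3 or BO-112 replicate 1 or 3, while the Nfe2l2 and Hmox1 calls held in all 15 such fits. It had 11 calls, Gclm among them, in the fit of both groups alone and without DMXAA replicates 2 and 3, beside 24.4% and 25.1% of all genes. Without the 4 muscle-high libraries it had 1, Nfe2l2, where 6.15% of all genes passed. Hmox1 also averaged 328 ± 153 CPM in DMXAA tumours and 345 ± 137 CPM in BO-112+DMXAA tumours. Nfe2l2 averaged 134 ± 12.2 and 175 ± 18.5 CPM in these groups. For BO-112+DMXAA against vehicle these 2 genes were called, of 18, beside 2.67% of all genes. Neither call held in all 15 fits with 1 library left out, where the list had 0 to 4 calls.

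Of 18 genes of arginine and polyamine metabolism, 4 were called for BO-112 against vehicle, all higher, beside 11.9% of all genes called and 7.64% higher. Ass1, which makes the arginine precursor argininosuccinate, averaged 381 ± 32.7 CPM in BO-112 tumours against 90.7 ± 20.1 CPM in vehicle tumours (log2 2.09 ± 0.22, adjusted p = 2.3e-05). Nos2, the inducible nitric oxide synthase that consumes arginine, averaged 661 ± 88.5 CPM in BO-112 tumours against 53.2 ± 32.7 CPM in vehicle tumours (log2 3.93 ± 0.57, adjusted p = 0.00034), and Arg2, the mitochondrial arginase, rose by 3.08 ± 0.54 (adjusted p = 0.0015). Arg2 rested on far fewer reads, at 4.61 ± 1.68 CPM in BO-112 tumours against 0.53 ± 0.25 CPM in vehicle tumours. Arg1, the cytosolic arginase, averaged 445 ± 97.5 CPM in BO-112 tumours against 400.1 ± 183 CPM in vehicle tumours and did not pass (adjusted p = 0.66). BO-112+DMXAA raised Ass1 (log2 1.25), Nos2 (2.67) and Arg2 (2.91) against vehicle as well, 3 of the 18, beside 2.67% of all genes. The Nos2 call there was lost in the fit of both groups alone, with 4.22% of all genes called, and without vehicle replicate 3 or BO-112+DMXAA replicate 1, 2 or 4, and the Arg2 call was lost without vehicle replicate 3. The BO-112 calls of Ass1, Nos2 and Arg2 held in all 15 fits with 1 library left out and without the 4 muscle-high libraries.

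Of 19 genes reported as ATF4 targets in amino acid supply, 3 were called higher for BO-112 against vehicle, beside 11.9% of all genes, the stress factors Atf3 (log2 2.02 ± 0.27, adjusted p = 0.00015), Ddit3 (0.80 ± 0.19, adjusted p = 0.011) and Cebpb (1.12 ± 0.34, adjusted p = 0.043). Asns, asparagine synthetase, did not pass (0.55, adjusted p = 0.071), nor did the pseudokinase Trib3 (0.38, adjusted p = 0.40). The count was 6 without DMXAA replicate 2, 8 without DMXAA replicates 2 and 3 and 9 in the fit of both groups alone, beside 19.9%, 25.1% and 24.4% of all genes, and Asns was called in each. It was 1, Atf3, without vehicle replicate 1 or without the 4 muscle-high libraries, the latter beside 6.15% of all genes. The Cebpb call was lost without vehicle replicate 1 or 2, any 1 BO-112 tumour, DMXAA replicate 3 or BO-112+DMXAA replicate 2, 3 or 4. Cebpb averaged 56.9 ± 7.36 CPM in BO-112 tumours and 67.5 ± 41.4 CPM in DMXAA tumours. For BO-112 against DMXAA, where 21.4% of all genes passed, 9 of the 19 were higher, including Vldlr (0.96), Atf3 (1.37) and the mTORC1 inhibitor Ddit4 (1.02). These 3 alone were called in the fit of both groups alone, beside 7.13% of all genes, and without the 4 muscle-high libraries, beside 4.47%. The count was 4 without any 1 BO-112 tumour and 5 without DMXAA replicate 1 or BO-112+DMXAA replicate 1.

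Other carriers of amino acids and peptides outside the 7 families gave 4 calls of 16 for BO-112 against vehicle, all higher, beside 11.9% of all genes. They were Slc25a22, the mitochondrial glutamate carrier (0.83 ± 0.11, adjusted p = 0.00019), Slc15a3, a lysosomal peptide carrier (1.23 ± 0.18, adjusted p = 0.00038), Slc16a10, a carrier of aromatic amino acids (0.89 ± 0.14, adjusted p = 0.00048), and the vesicular glutamate carrier Slc17a8 (2.40), the last at 1.10 CPM in BO-112 tumours against 0.192 CPM in vehicle tumours and lost without vehicle replicate 3.

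Lists of amino acid use had 2 or 3 calls each for BO-112 against vehicle, where 11.9% of all genes passed. Of 23 genes of amino acid sensing by mTORC1, 1 was higher, Fnip1 (0.50), and 2 were lower, the leucine sensor family members Sesn1 (-1.11 ± 0.17, adjusted p = 0.00059) and Sesn3 (-0.59 ± 0.17, adjusted p = 0.030). Of 18 genes of glutamine and glutamate metabolism, Got1 was higher (0.67) and Glul, glutamine synthetase, was lower (-0.56, adjusted p = 0.045). Of 19 genes of branched-chain amino acid catabolism, Ppm1k (0.78) and Acadsb (0.41) were higher and Pccb (-1.07) was lower. Of 12 genes of tryptophan and phenylalanine catabolism, Kmo (-1.60, adjusted p = 0.048) and Kyat1 (-0.84, adjusted p = 0.046) were lower, and Ido1 did not pass (0.58, adjusted p = 0.69). The calls of Sesn1, Ppm1k and Pccb held in all 15 fits with 1 library left out. Of these lists they alone were called without the 4 muscle-high libraries, beside 6.15% of all genes. Acadsb was lost without vehicle replicate 2 and Got1 without vehicle replicate 1, and Sesn3, Fnip1, Glul, Kmo and Kyat1 were each lost in at least 5 of the 15 fits, including those without vehicle replicate 1 or BO-112 replicate 1. In the fit of both groups alone the mTORC1 list had 6 calls of 23 and the glutamine list 4 of 18, beside 24.4% of all genes. Both shares were near that of genes in general.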

How the data were processed

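RNA from 15 tumours was measured by mRNA sequencing. The submitters' processing notes name STAR, edgeR, limma and the build mm39. The deposited values are log2 CPM per gene after the authors' scaling, and every value gave back a whole read count, within 1e-06, once the authors' prior of 0.5 reads was taken off. A deposited table of raw counts names no samples, and its 15 columns were not used.

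Gene symbols and exon lengths were matched by Ensembl identifier to GENCODE release M21 (17636 of 17712 genes). Transporters and gene lists were chosen with earlier results of these data known. Genes are named where they passed a test and averaged at least 1 CPM, or were on a panel of 16 transporters and 6 metabolic genes. For each list the genes with the smallest adjusted p come first.

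Every gene of the deposited log2 table entered 1 limma model (version 3.58.1, R 4.3.3) with 4 group means, trend and robust moderation of the spread, without a filter, and p-values were adjusted by Benjamini-Hochberg within each comparison. The fit was tested on simulated data. Group means are of CPM, and a fold change is 2 to the power of the log2 difference, which understates changes of genes with few reads because of the prior. The p-values measure the spread between the tumours sampled. Alternatives were 2 other scalings, a filter of 1 CPM in 4 libraries, a prior of 2 reads, limma-voom on the recovered reads, the replicate number as a block, fits of the compared groups alone and each library left out. 3 further ones, and the counts of the gene lists with each library left out, were added after seeing the data. The share of all genes called moved with the library left out too. List counts from those fits are therefore no result about the lists alone.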

Additional observations from a re-analysis of the deposited data

Results flagged for a closer look

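Among 60 combinations of a named transporter and a group of 4 tumours, 4 held a tumour far from the other 3 on the log2 CPM scale, where chance marks about 1 in 20. Slc1a2 stood at -3.27 in DMXAA replicate 3, from a single read, against -1.69 to -1.56 in the other DMXAA tumours. Slc6a9 stood at 3.16 in DMXAA replicate 2, against 5.15 to 5.49 in the other DMXAA tumours. Slc6a6 stood at 8.41 in BO-112+DMXAA replicate 4, against 7.67 to 7.78, and Slc6a8 at 7.50 in BO-112 replicate 4, against 7.17 to 7.22 in the other tumours of the same group. Without DMXAA replicate 2 the log2 fold change of Slc6a9 for BO-112 against DMXAA was 0.83, against 1.37 with all libraries.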

How the results depend on the processing

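The calls of Slc7a11, Slc7a8 and Slc1a2 for BO-112 against vehicle and of these genes and Slc7a2 for BO-112 against DMXAA passed under all 25 alternatives, and no called fold change of a transporter changed sign. For Slc1a2 the filter of 1 CPM in 4 libraries lends no support. Outside the BO-112 tumours only BO-112+DMXAA replicate 2, at 1.35 CPM, reached 1 CPM, so it passed the filter through the group where it was high. The share of all genes called also moved between settings. For BO-112 against vehicle it was 11.9% with all libraries and 24.4% in the fit of these groups alone. It was 25.1% there without DMXAA replicates 2 and 3. A count given below without that share is therefore no result about the transporters. The counts moved as follows. Fits of the compared groups alone called 10 genes for BO-112 against vehicle, 1 for BO-112+DMXAA against BO-112, 0 for BO-112+DMXAA against DMXAA and 7 for BO-112 against DMXAA. Total count scaling called 1 for BO-112+DMXAA against vehicle, and moved the median of all genes to -0.20 for BO-112 against vehicle, -0.11 for DMXAA against vehicle, 0.10 for BO-112+DMXAA against BO-112 and 0.23 for the interaction. With 1 library left out, counts ranged from 0 to 2 for BO-112+DMXAA against vehicle, from 0 to 9 for BO-112+DMXAA against DMXAA, from 10 to 16 for BO-112 against DMXAA and from 0 to 1 for the interaction.

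Of the alternatives chosen after seeing the data, leaving out the 4 muscle-high libraries called 0, 0 and 5 for BO-112+DMXAA against vehicle, BO-112+DMXAA against DMXAA and BO-112 against DMXAA. Without DMXAA replicates 2 and 3 the counts were 7 and 2 for BO-112 and DMXAA against vehicle, 1 and 0 for BO-112+DMXAA against BO-112 and DMXAA, 9 for BO-112 against DMXAA and 1 for the interaction. Array quality weights gave 11 and 4 for BO-112 and BO-112+DMXAA against vehicle, 1 and 0 for BO-112+DMXAA against BO-112 and DMXAA, and 1 for the interaction. Fewer samples enter the fits that leave out libraries or groups, and beyond that the cause was not tested.

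The replicate number as a block gave 4, 0, 2, 0, 2, 13 and 0 calls, in the order BO-112, DMXAA and BO-112+DMXAA against vehicle, BO-112+DMXAA against BO-112 and DMXAA, BO-112 against DMXAA, and interaction. It ended the Slc38a1 call and no other. Deviations of libraries with the same number correlated by a mean of 0.0152 over 21 pairs (lowest -0.21), beside -0.0051 over 63 pairs with other numbers. These means cannot settle whether the numbers pair the tumours, since a pairing that moved few genes would barely change them. Genes under 1 CPM rest on few reads, down to 0 in some libraries.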

Other observations

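Several transporters were highest in the same library, a pattern chosen after its values were seen. Of those given here, all but Slc43a3, at a mean of 16.3 CPM, averaged under 1 CPM. In BO-112 replicate 2, Slc1a3 stood at 4.99 CPM against 0.274 to 0.702 in the other BO-112 tumours, Slc36a2 at 3.25 against 0.274 to 0.466, and Slc43a3 at 39.0 against 13.5 to 14.9. Slc1a2, called for BO-112 against vehicle, was highest there too, at 3.37 CPM against 1.26 to 2.30 in the other BO-112 tumours. The summed level of adipocyte markers (10 of 12 in the table) was 329 CPM in that library, against 21.6 to 26.6 CPM in the other BO-112 tumours, and 219 and 372 CPM in DMXAA replicates 1 and 2, where Slc36a2 stood at 1.95 and 1.74 CPM and Slc1a3 at 1.48 and 1.43 CPM. Slc43a3 stood at 24.6 CPM in DMXAA replicate 1 and at 7.9995 CPM, its lowest of the 15 libraries, in DMXAA replicate 2. Slc1a2 stood at 0.286 CPM in DMXAA replicate 1 and 0.302 CPM in DMXAA replicate 2. The part of adipose tissue in these levels was not tested. The antisense-strand neighbour Slc7a6os, whose exons span 1246 bases, stood at 70.8 CPM in DMXAA replicate 2 against 34.3 to 43.4 CPM in the other DMXAA tumours.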
